A study of Mus musculus with 15 samples.

Results

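The genes described here encode the proteins of the cytosolic ribosome. They were taken from the table of array values as every probe set whose 1 platform symbol begins with Rpl or Rps and a digit, or is Rplp0, Rplp1, Rplp2 or Rpsa. S6 kinases, names ending in -ps and ribosomal protein-like genes were left out. A gene with several probe sets was read from the probe set with the highest mean. The rule took 44 of the 18193 genes that have a probe set of their own. Of these, 43 encode ribosomal proteins, 21 of the small (40S) and 22 of the large (60S) subunit. The remaining gene, Rps19bp1, encodes a protein that binds RPS19 and is counted by the rule but described apart. Signal was high enough for testing in 43 of the 44 genes, which are called the members below. Rps16 was left out because its probe set read between 0.6 and 2.6 on all arrays. A further 27 ribosomal protein symbols, among them Rpl3, Rpl5, Rpl10, Rplp1, Rpl36a and Rps23, occurred only in probe sets shared with other symbols and are not given values here.

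All groups were spermatogonial stem cell cultures started from C57BL/6 male mice aged 6 days and enriched for germ cells. The withdrawal group had gone 18 h without the growth factor GDNF and its co-receptor GFRalpha1. In 3 replacement groups both factors had been given back for 2 h, 4 h or 8 h after the same withdrawal, and the maintained group had received them without a break, with bFGF, in serum-free medium. What else the medium held during withdrawal is not stated in the labels. Each group had 3 arrays, 15 in all. The comparisons ask which transcripts depend on GDNF signalling.

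A ribosome joins a small subunit, which reads the mRNA, to a large subunit, which forms peptide bonds. Each subunit is built from ribosomal RNA and a fixed set of proteins, nearly all needed in equal copy number, so their genes are usually expressed together. In mammals most of these mRNAs begin with a tract of pyrimidines, the 5' terminal oligopyrimidine or TOP motif, through which the kinase complex mTORC1 and the RNA-binding protein LARP1 control how well they are translated. GDNF acts through GFRalpha1 and the receptor RET and is known to activate PI3K and AKT, which lie upstream of mTORC1, in these cells. Arrays of total RNA measure the amount of an mRNA and not its translation.

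Promoter sequences (RefSeq, GRCm38.p6, from 250 bases before to 50 bases after the annotated start) were found for 38 of the 43 ribosomal protein genes. A TOP-like tract was searched on the gene's strand as a C followed by at least 5 further pyrimidines (C or T), beginning between 10 bases before and 30 bases after the annotated start. It was present in 30 of the 38 genes, or 78.9%, and in 33.4% of all 27025 genes of the table. The letters CCGGAAG, an ETS-type motif of the kind bound by GABPA, were searched on both strands of the whole window and were present in 19 of the 38 genes and in 9.93% of all genes. No overlap between the tract and this motif was filtered. Sequences of 5 members named below are shown, and no comparison of signals used them. They are Rps6 and Rplp2 as examples with a tract, Rps27 for the lowest difference on withdrawal, and Rps4x and Rpl39 for the pattern over replacement time. Each runs from 40 bases before the annotated start to 30 bases after it, 5' to 3' on the gene's strand, with the tract in capitals.
Rps6, chr4:86857338-86857407, minus strand: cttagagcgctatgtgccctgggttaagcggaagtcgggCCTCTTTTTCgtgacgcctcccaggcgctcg
Rplp2, chr7:141447611-141447680, plus strand: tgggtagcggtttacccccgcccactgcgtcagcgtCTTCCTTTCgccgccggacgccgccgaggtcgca
Rps27, chr3:90213619-90213688, minus strand: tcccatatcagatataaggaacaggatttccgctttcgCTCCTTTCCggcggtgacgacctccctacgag
Rpl39, chrX:37085193-37085262, minus strand: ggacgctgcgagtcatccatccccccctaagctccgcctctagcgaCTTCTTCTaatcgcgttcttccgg
Rps4x, chrX:102189362-102189431, minus strand: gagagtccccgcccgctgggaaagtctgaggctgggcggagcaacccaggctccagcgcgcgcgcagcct
Rps4x has no capitals because the search found no such tract in its window, and for Rpl39 the tract begins 7 bases into the annotated transcript. These are matches to letters, and start sites in these cells were not measured.

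No member passed the test in any of the 5 comparisons of the design. Values are MAS5 signals, the Affymetrix summary of a probe set's brightness on a linear scale, and differences are limma estimates of log2(signal + 16), in which a difference of 1 is a doubling. A gene was called at a Benjamini-Hochberg adjusted p under 0.05 over the 13083 genes tested. On withdrawal 0 of 43 members were called, against 8.04% of all genes. The corresponding count against withdrawal was 0 of 43 members at 2 h, where 0.115% of all genes were called. It was 0 at 4 h, where 2.64% of all genes were called, and 0 at 8 h, where 2.39% were. In 8 h cultures against maintained cultures 0 members were called, against 0.482% of all genes. A moderated F-test for any difference among the 5 groups called 0 members and 6.68% of all genes, and 2 members, Rps4x and Rpl39, had an unadjusted p under 0.05 in it, as had 25.2% of all genes. At an unadjusted p under 0.05 these comparisons gave 1, 0, 1, 0 and 1 of 43 members, in the same order, against 23.8%, 8.06%, 19.6%, 15.3% and 17% of all genes. The smallest adjusted p of any member in the 5 comparisons was 0.163 (limma). Labels do not say whether the arrays of a group came from separate cultures, so p-values measure the spread between these arrays. The 3 replacement comparisons share their withdrawal arrays.

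Differences were small. The members' median log2 difference on withdrawal was -0.01, with 20 members higher and 23 lower, beside a median of 0.06 over all genes, of which 57.2% were higher. The median of the 60S genes was -0.03 and that of the 40S genes -0.01. At 2 h of replacement against withdrawal the members' median was -0.06, with 31 members lower, and that of all genes was -0.04, with 42.7% of genes higher. At 4 h it was 0.13 with 37 members higher, beside -0.05 for all genes, of which 43.7% were higher. At 8 h against withdrawal it was -0.04, with 32 members lower, and all genes had a median of 0.01, with 51.8% higher. At 8 h against maintained cultures the members' median was -0.05, with 32 lower, and that of all genes was 0.06, with 58.6% higher. The medians depended on single arrays. Without withdrawal replicate 3 the members' median was -0.21 on withdrawal. Against withdrawal it was then 0.14 at 2 h, 0.34 at 4 h and 0.13 at 8 h, so that the sign turned at 2 h and at 8 h. With any 1 array left out, the median ran from -0.21 to 0.15 on withdrawal. At 8 h against maintained cultures, where no withdrawal array enters, it ran from -0.23 to 0.11. The 95% interval of the withdrawal difference lay within 2-fold for 41 of 43 members and within 1.5-fold for 36, or 83.7%. These intervals use the spread pooled over all 5 groups. When only withdrawal and maintained arrays were fitted, 8 members had an interval within 1.5-fold. For 4 h against withdrawal the count within 1.5-fold was 28 in the pooled fit and 15 in the 2 groups alone.

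**Figure D1:**
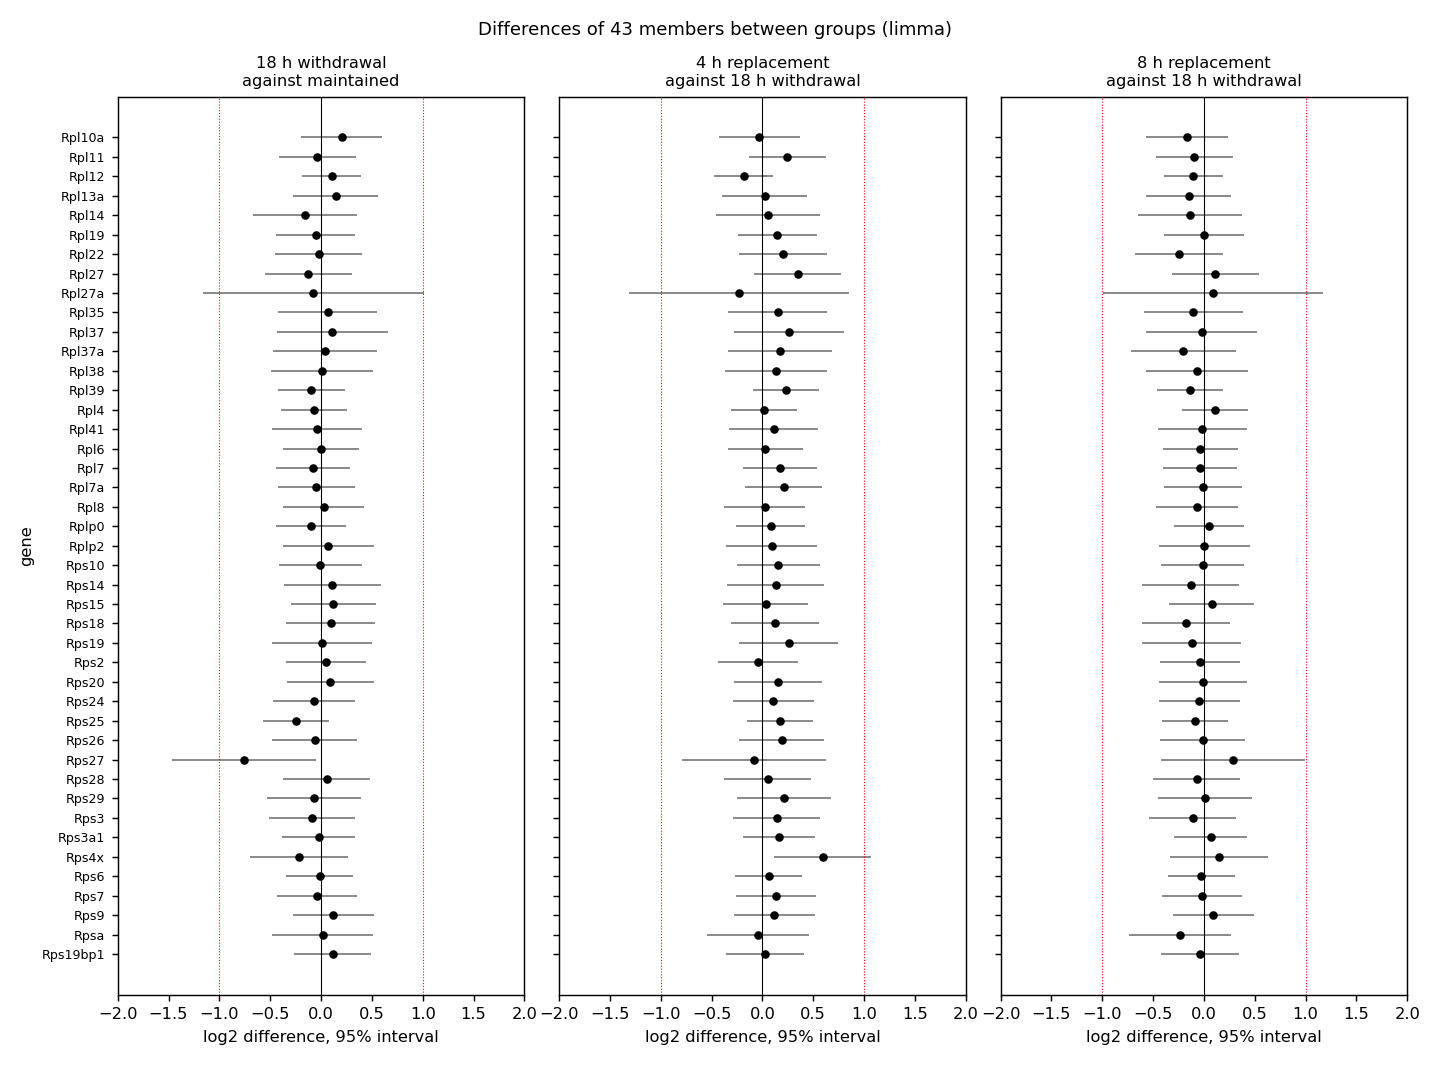
Log2 difference (point) and its 95% interval (line) of the 43 members on the horizontal axis, 1 row a gene, for withdrawal against maintained cultures and for 4 h and 8 h of replacement against withdrawal. Dotted lines mark a 2-fold difference in each direction. Nearly all points lie close to 0, the lowest on withdrawal is Rps27 at -0.76 and the highest at 4 h is Rps4x at 0.59.

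The members moved together from array to array, most widely among the arrays of the withdrawal group and of the maintained group. Each member's log2 value was set against its own mean over 15 arrays, and the median over members was taken on each array. This median was -0.23, -0.19 and 0.41 on the 3 withdrawal arrays and -0.36, 0.33 and 0.03 on the 3 maintained arrays. It was 0.03, -0.14 and -0.08 at 2 h, 0.04, 0.17 and 0.12 at 4 h, and -0.08, 0.02 and -0.04 at 8 h of replacement. Withdrawal replicate 3 and maintained replicate 2 were thus the high arrays and maintained replicate 1 the low one. Of the 43 members, 40 had their highest signal of the group on withdrawal replicate 3, as 41.7% of all genes did. On maintained replicate 2 the count was 42 members, against 36.1% of all genes, and 40 members were lowest of the group on maintained replicate 1, against 33.9%. The median over all genes stayed between -0.03 and 0.05 on every array. The SD of the members' median over 3 arrays was 0.36 on withdrawal and 0.35 in maintained cultures, where the group means were 0.00 in both. It was 0.087 at 2 h, 0.067 at 4 h and 0.050 at 8 h, where the means were -0.06, 0.11 and -0.04, and all 4 h arrays lay above all 2 h and 8 h arrays.

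Within the withdrawal, maintained, 4 h and 8 h groups the shift had the same order of arrays as the top of the signal range, to which the brighter members themselves belong. The signal exceeded by the brightest 0.5% of probe sets was 6305 on withdrawal replicate 3, against 4399.9 and 4502 on the other withdrawal arrays. It was 6190.2 on maintained replicate 2 and 4453 on maintained replicate 1. It was 6197 on replicate 2 at 4 h, the array with the highest members' median of the replacement groups. At 8 h it was 4719, 5118 and 4732, in the order of the members' median. At 2 h it was 5067, 4909 and 5344, which does not follow the order of the members' median. After quantile normalization, which gives all arrays the same distribution of signal, the members' median lay between -0.05 and 0.09 on the 15 arrays. The median SD of a member between arrays of a group was then 0.12, beside 0.25 without it, while over all genes it was 0.23 with and without. Withdrawal replicate 3 also stood apart in the 3' to 5' ratio of the actin control probe sets, a measure of RNA integrity and labelling, at 2.77 against 1.10 to 1.75 on the other 14 arrays. The part of these measures in the shift was not tested.

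**Figure D2:**
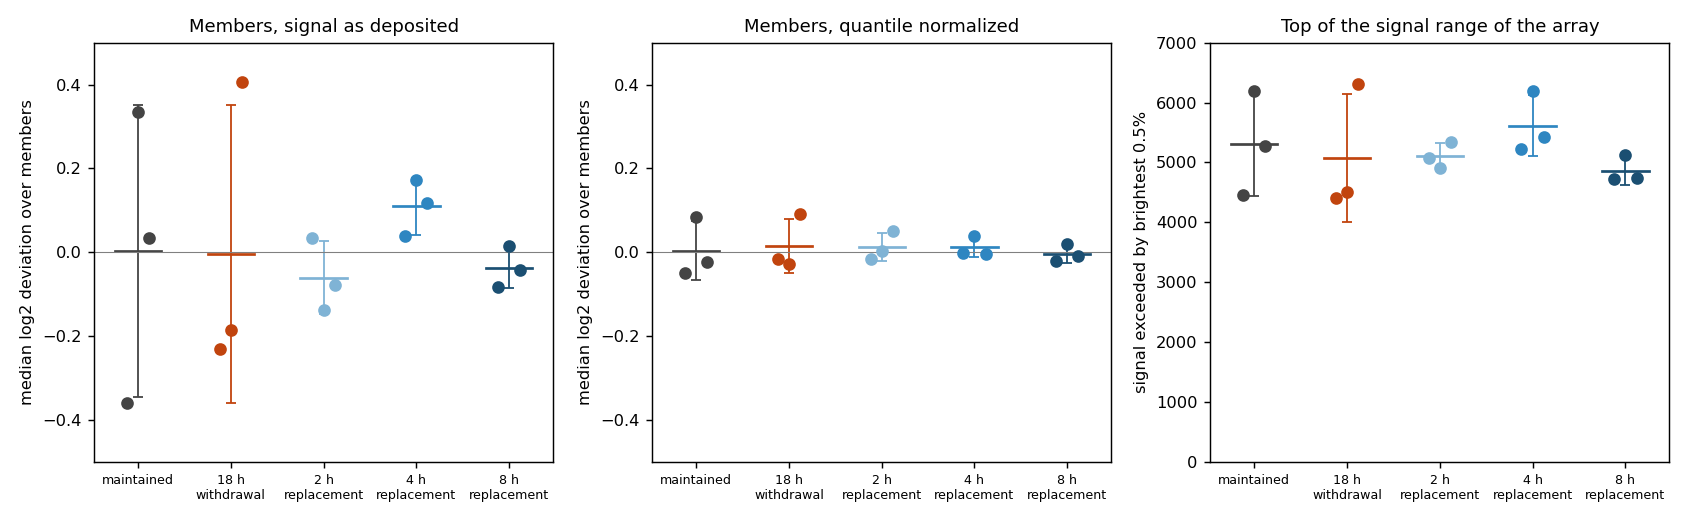
Points are arrays, horizontal lines group means and bars the SD over 3 arrays, from maintained cultures through withdrawal to 2 h, 4 h and 8 h of replacement. The left and middle panels plot the members' median log2 deviation before and after quantile normalization, and the right panel plots the signal exceeded by the brightest 0.5% of probe sets, where withdrawal replicate 3 and maintained replicate 2 are high, as in the left panel.

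**Figure D3:**
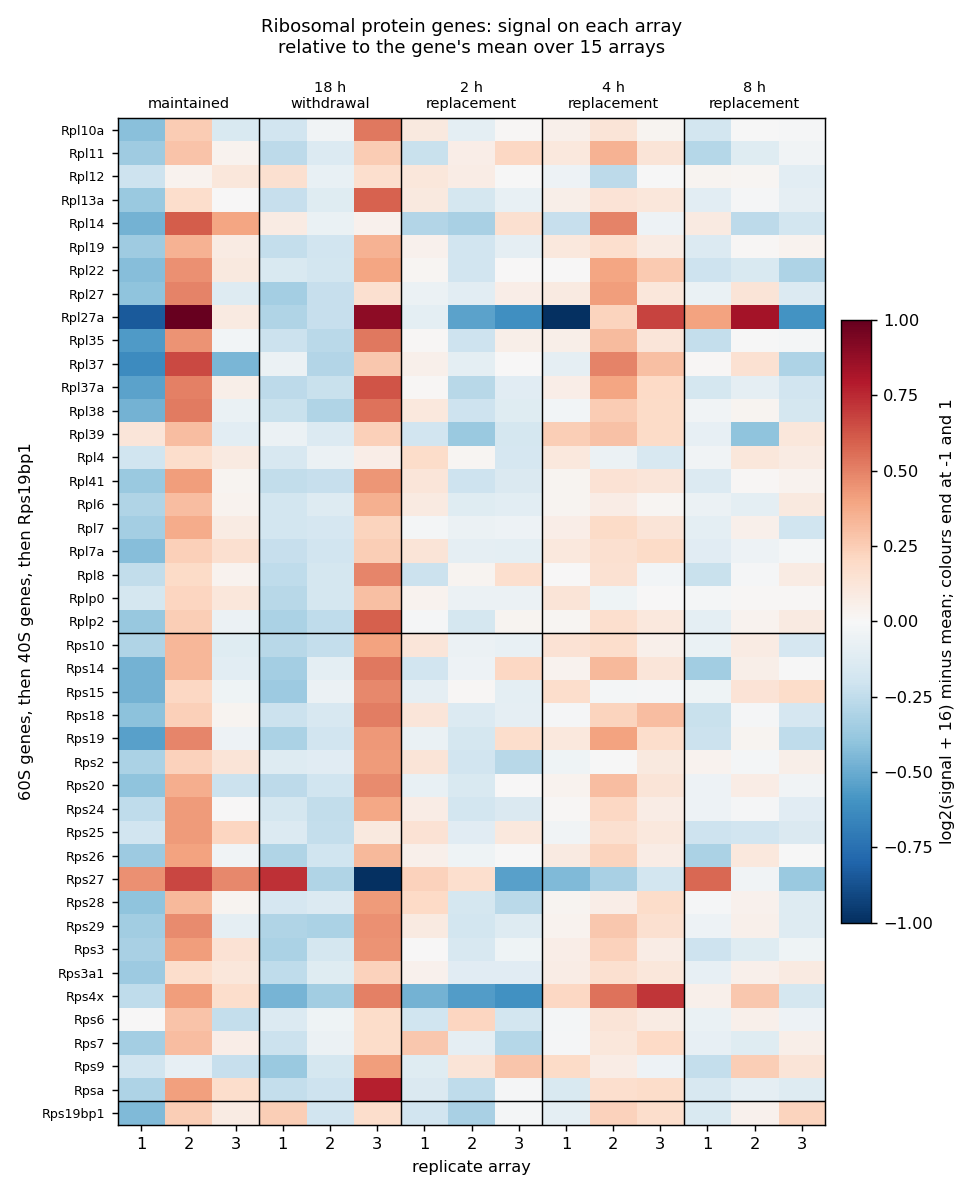
Log2 deviation of each member (rows) from its mean over the 15 arrays (columns, 3 a group), with 60S genes above, 40S genes below them and Rps19bp1 last. Colour changes by column: withdrawal replicate 3 and maintained replicate 2 are above the mean for 42 of 43 members each, and Rps27 runs against the others on withdrawal replicate 3.

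The ribosomal stalk recruits elongation factors to the large subunit, and its proteins P0 and P2 are encoded by Rplp0 and Rplp2. Rplp0 had signals of 8022, 8623 and 11977 on withdrawal and 8605, 11273 and 10549 in maintained cultures. At 2 h of replacement it had 9958, 9368 and 9321, at 4 h 10615, 9462 and 9754, and at 8 h 9588, 9811 and 9786. All groups overlapped, and the F-test over the 5 groups gave an adjusted p of 0.977 (limma). Rplp2, printed above with its TOP-like tract, had 7892, 8228 and 14837 on withdrawal against 7566, 11681 and 9408 in maintained cultures. Its adjusted p in the F-test was 0.957 (limma).

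RPL11 joins RPL5 and the 5S ribosomal RNA in a particle that, when not built into ribosomes, binds the p53 inhibitor MDM2. Rpl11 had 3617, 3954 and 5178 on withdrawal against 3395, 5296 and 4455 in maintained cultures. At 2 h it had 3729.9, 4555 and 5014, at 4 h 4693, 5533 and 4746, and at 8 h 3574, 4002 and 4239.9. The 8 h arrays all lay below the 4 h arrays, but the F-test did not call the gene (adjusted p = 0.61, limma).

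In the small subunit, RPS6 is the substrate for which the S6 kinases are named and is a common readout of mTORC1 activity. Rps6 was read by a dim probe set with 178.5, 191.6 and 226.4 on withdrawal against 197.9, 243.6 and 165.0 in maintained cultures. Its signals were 170.0 to 231.6 at 2 h, 194.7 to 217.3 at 4 h and 187.7 to 204.7 at 8 h. The ranges of all groups overlapped, with an adjusted p of 0.966 in the F-test (limma).

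Rps19 and Rps14 encode small subunit proteins whose human counterparts are known from Diamond-Blackfan anaemia and the 5q- syndrome. Rps19 had 5933, 6469 and 10017 on withdrawal against 5081, 10371 and 7147 in maintained cultures (F-test adjusted p = 0.715, limma). Rps14 had 6540.3, 7738 and 11974 on withdrawal against 5967, 10440 and 7723 in maintained cultures (F-test adjusted p = 0.856, limma). Rpsa encodes a small subunit protein that was first described as a laminin receptor. It had 8852, 9056 and 17913 on withdrawal against 8429, 13944 and 11798 in maintained cultures (F-test adjusted p = 0.803, limma). In each of these 3 genes withdrawal replicate 3 was the highest withdrawal array and maintained replicate 2 the highest maintained array. Over the 5 comparisons the log2 differences of Rplp0, Rplp2, Rpl11, Rps6, Rps19, Rps14 and Rpsa lay between -0.24 and 0.26, with no adjusted p under 0.465 (limma).

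Among the genes with the highest or lowest difference in the 5 comparisons, Rps27 was read by a dim probe set and Rpl27a by a scattered one. The others, Rpl10a, Rps9, Rpl22 and Rps4x, had mean signals of 7856, 4679, 6374 and 3195 over the 15 arrays. Rps27, which encodes a zinc finger protein of the small subunit, had the lowest difference on withdrawal. Its signals were 320.3, 148.5 and 78.3 on withdrawal and 262.7, 306.5 and 266.6 in maintained cultures, so that withdrawal replicate 1 lay above all maintained arrays and the other two below them. The log2 difference was -0.76 (SE 0.34, adjusted p = 0.176, limma). Without withdrawal replicate 1 it was -1.24, with an adjusted p of 0.0155 (limma). At 2 h Rps27 had 222.7, 212.2 and 123.4, and its log2 difference of 0.18 against withdrawal, not called, was the highest of that comparison. At 8 h it had 285.6, 182.7 and 141.0. Its log2 difference was then 0.28 against withdrawal, the highest, and -0.48 against maintained cultures, the lowest, neither called. The adjusted p was 0.746 for the first and 0.467 for the second (limma).

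Rpl27a, a large subunit gene, had 1117, 822 and 779 at 2 h of replacement against 968, 1018 and 2247 on withdrawal, the lowest log2 difference of that comparison at -0.54, which was -0.15 without withdrawal replicate 3. It also had the lowest difference at 4 h, -0.23, with 501, 1402 and 1928. Its SE was 0.51 and its arrays differed widely, from 501 to 1928 at 4 h and from 661 to 3059 in maintained cultures. At the other end, Rpl10a had the highest difference on withdrawal at 0.20, with 6806, 7568 and 11211 against 5821, 9260.1 and 6989.7 in maintained cultures. Without withdrawal replicate 3 the difference was -0.01. Rps9 had the highest difference of 8 h against maintained cultures, 0.21, with 3919, 5484 and 5071 against 4051, 4376 and 3935. Rpl22, the large subunit parent of the paralog Rpl22l1, was lowest at 8 h against withdrawal, at -0.24 (5416, 5624 and 5059.7 against 5625, 5506 and 8260.1), and at -0.05 without withdrawal replicate 3. The adjusted p of these named differences ran from 0.555 to 0.84 (limma). Rps25, of the small subunit, had an unadjusted p under 0.05 at 8 h against maintained cultures, with 212.2, 214.7 and 222.6 against 214.4, 337.2 and 290.4 (log2 difference -0.33, adjusted p = 0.284, limma).

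**Figure D4:**
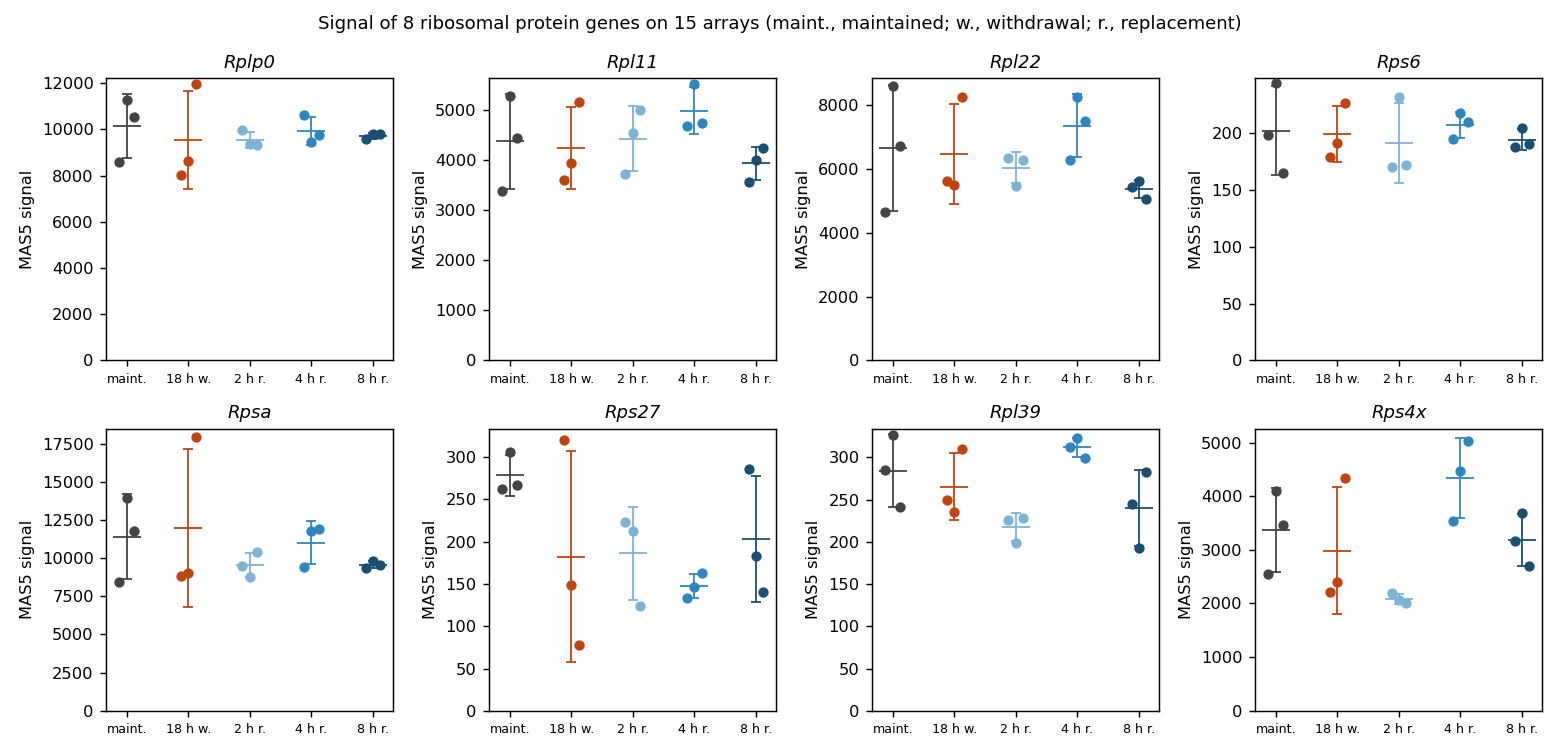
MAS5 signal on the vertical axis, from 0 and on its own scale for each of 8 genes, for maintained (maint.), withdrawal (w.) and replacement (r.) arrays, with horizontal lines at the mean and bars for the SD over 3 arrays. Rplp0, Rpl11, Rpl22, Rps6 and Rpsa overlap between withdrawal and maintained cultures, Rps27 is scattered on withdrawal, and Rps4x is low on all 2 h arrays, with all 4 h arrays above them.

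Rps4x, the X-linked gene of a small subunit protein, stood out by its course over replacement. Its signals were 2194, 2072 and 2009 at 2 h, 3541, 4463 and 5024 at 4 h, and 3161, 3682 and 2707 at 8 h. On withdrawal it had 2209, 2399 and 4348, and in maintained cultures 2555, 4097 and 3456. The 2 h arrays were the lowest group, below every array of the other 4 groups, and the 4 h arrays were above all 2 h arrays. The log2 difference of 4 h against withdrawal was 0.59 (SE 0.23, adjusted p = 0.163, limma), and without withdrawal replicate 3 it was 0.90 with an adjusted p of 0.0187 (limma). The F-test over 5 groups gave an adjusted p of 0.0635 (limma).

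After these values were seen, 4 h was also compared with 2 h, 8 h with 2 h and 8 h with 4 h. Rps4x was higher at 4 h than at 2 h by 1.03 on the log2 scale (SE 0.23, 95% interval 0.56 to 1.51), 2.05-fold, with an adjusted p of 0.0247 (limma). It was 1 of 43 members called in that comparison, against 1.94% of all genes. The call did not hold when any 1 of the 2 h arrays, 4 h replicate 2 or 4 h replicate 3 was left out, with adjusted p-values from 0.0605 to 0.152 (limma). It also lay above the threshold with p-values adjusted over all probe sets (0.051) and without the filter on dim probe sets (0.0541), by limma. At 8 h against 2 h the log2 difference was 0.59 (adjusted p = 0.224, limma) and the groups did not overlap, as they did not for 25.6% of all genes. At 8 h against 4 h it was -0.44 (adjusted p = 0.374, limma). Of the members, 0 of 43 were called at 8 h against 2 h, against 1.85% of all genes, and 0 at 8 h against 4 h, where 0% of all genes were called. At an unadjusted p under 0.05 there were 2 members at 4 h against 2 h, 1 at 8 h against 2 h and 2 at 8 h against 4 h. The shares of all genes were 15.1%, 14.5% and 14.9%, in that order.

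Measures of other cells and of RNA quality differed between the same arrays. Of 12 fibroblast marker genes tested, 7 were called higher at 4 h than at 2 h and 0 lower, with a median log2 difference of 1.11, beside 1.94% of all genes called. The calls of Col1a2, Col3a1, Dcn and Postn held in all 27 alternative settings, that of Pdgfra in 24, of Col6a1 in 18 and of Vim in 13. Among the 7 are Col3a1 (1.74) and Dcn (1.32), which encode a fibrillar collagen and the matrix proteoglycan decorin. The summed signal of the list was 13171 to 17083 at 4 h, against 5064 to 9138 at 2 h. It was 14073 to 17268 at 8 h, 8046 to 11498 on withdrawal and 7361 to 11219.6 in maintained cultures. The actin 3' to 5' ratio was 1.12, 1.52 and 1.75 at 4 h and 1.10, 1.14 and 1.28 at 2 h. The part of either in the Rps4x difference was not tested, and in such bulk RNA fewer cells of a type and less RNA per cell cannot be told apart. The autosomal paralog Rps4l had 3621.5, 3908 and 4643 at 2 h and 3950.1, 3309 and 2811 at 4 h and did not follow the order of Rps4x.

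Rpl39, the other X-linked member with a value, encodes a small protein of the tunnel through which the nascent peptide leaves. Its dim probe set had 226.2, 198.0 and 228.1 at 2 h, 312.0, 323.2 and 299.7 at 4 h, and 245.0, 192.8 and 282.9 at 8 h. On withdrawal it had 249.7, 235.3 and 310.4, and in maintained cultures 285.3, 326.5 and 241.0. The log2 difference of 4 h against 2 h was 0.49 (SE 0.15, adjusted p = 0.124, limma), with groups that did not overlap. Rpl39 and Rps4x were also the 2 members whose 2 h arrays all lay below the withdrawal arrays, 4.65% of members against 14.6% of all genes with groups that did not overlap. At 4 h against 2 h the groups did not overlap for 11 members, all higher at 4 h, which is 25.6% of members against 19.9% of all genes. At 8 h against 4 h this held for 14 members, all lower at 8 h, which is 32.6% against 21.4% of all genes. The members' medians were 0.17 and -0.17 in these comparisons, and 0.01 and -0.02 after quantile normalization, which evens out a shift shared by bright probe sets whatever its source.

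All 89 single-symbol probe sets of the members that passed the filter were also tested, with p-values adjusted over 27022 probe sets, and 0 were called in each of the 8 comparisons. Of all probe sets, 4.42% were called on withdrawal. Against withdrawal the share was 0.0407% at 2 h, 0.877% at 4 h and 1.03% at 8 h, and in 8 h cultures against maintained cultures it was 0.192%. It was 0.829% at 4 h against 2 h, 0.807% at 8 h against 2 h and 0% at 8 h against 4 h. Of 101 probe sets that list a ribosomal protein together with other symbols, 0 were called in the 5 comparisons of the design and 1 at 4 h against 2 h, a share near that of all probe sets, and this 1 cannot be given to a single gene. Their median log2 difference on withdrawal was 0.02. Many ribosomal proteins have processed pseudogenes of near-identical sequence, and 15 of the members were read by probe sets ending in _x_at or _s_at, which can bind related transcripts, so their signal may be shared. Rps19bp1 had 283.9, 205.6 and 268.6 on withdrawal and 169.8, 283.7 and 251.1 in maintained cultures (F-test adjusted p = 0.677, limma).

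Ribosomal protein-like genes are paralogs, some of them retained in particular tissues, and 5 of 8 had a value. None of the 5 was called in any comparison, and the share of all genes called ran from 0% at 8 h against 4 h to 8.04% on withdrawal. Rps27l had 2714, 2386.5 and 3073 on withdrawal against 2671, 5670.5 and 3719 in maintained cultures, with a log2 difference of -0.50 (adjusted p = 0.167, limma). Rpl22l1 had 3744, 3475 and 3966 on withdrawal against 2627, 7132 and 3953 in maintained cultures. Rpl39l had 2105, 2126 and 2370.4 on withdrawal against 1639, 3865 and 2167 in maintained cultures. In all 3 genes maintained replicate 2 was the highest array, as it was for their parents Rps27, Rpl22 and Rpl39 within that group. Mitochondrial ribosomal proteins, which form a separate ribosome, had 3 of 76 genes called on withdrawal, beside 8.04% of all genes. Of the 3, 1 was higher (Mrps21, 0.64) and 2 lower (Mrpl18, -0.63, and Mrpl20, -0.78). Their calls held in 20, 25 and 19 of 27 alternative settings, in that order. That of Mrps21 was lost with the mean of a gene's probe sets (adjusted p = 0.514, limma). The median log2 difference of the 76 on withdrawal was -0.12, with 16 higher, beside 0.06 for all genes, of which 57.2% were higher. Against withdrawal 0 were called at 2 h, 4 h or 8 h, where 0.115%, 2.64% and 2.39% of all genes were called.

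Genes that act with the ribosome changed in small numbers on withdrawal, where 8.04% of all genes were called. Of 18 elongation factors and other TOP mRNAs tested, 1 was called on withdrawal, Btf3, a subunit of the nascent polypeptide-associated complex (-0.53, adjusted p = 0.0299, limma). The median of this list was -0.01. Of 22 initiation factors 2 fell, Eif2s2 (-0.57, adjusted p = 0.0255) and the cap-binding protein gene Eif4e (-0.94, adjusted p = 0.0443, limma), and the median was -0.15. Of 23 ribosomal protein chaperones and late assembly factors 1 rose, Aamp (0.69, adjusted p = 0.0371, limma). No gene of these 3 lists was called at 2 h, 4 h or 8 h against withdrawal, where 0.115%, 2.64% and 2.39% of all genes were called. The call of Btf3 held in 19, of Eif2s2 in 20, of Eif4e in 11 and of Aamp in 18 of 27 alternative settings. With the mean of a gene's probe sets Eif2s2 was not called (adjusted p = 0.296, limma). Without probe sets ending in _x_at or _s_at Btf3 was not called (adjusted p = 0.525, limma).

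Some genes of the pathway that controls translation of the ribosomal protein mRNAs did pass the test. Of 23 genes of mTORC1 and TOP mRNA control, 3 rose and 2 fell on withdrawal, where 8.04% of all genes were called. Rragd, a Rag GTPase that brings mTORC1 to the lysosome, had a mean signal of 1146 ± 167 on withdrawal against 257.0 ± 27.7 in maintained cultures (SD, n = 3 each). Its log2 difference was 2.08, with an adjusted p of 2.75e-06 (limma). Ddit4, which encodes the mTORC1 inhibitor REDD1, had 2915 ± 825 against 1193 ± 59.0, a log2 difference of 1.24 (adjusted p = 0.00207, limma). Rptor, which encodes the mTORC1 scaffold RAPTOR, rose by 0.52. Deptor, an mTOR inhibitor, fell by 1.04, and Rheb, the GTPase that activates mTORC1, fell by 0.60. The changes of Rragd, Ddit4 and Deptor were called in all 27 alternative settings, that of Rptor in 22 and that of Rheb in 21. With the mean of a gene's probe sets in place of the brightest, Rptor was not called (adjusted p = 0.566, limma).

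On replacement Rragd and Ddit4 were lower than on withdrawal. Rragd had 464.6 ± 76.2 at 8 h against 1146 ± 167 on withdrawal (log2 difference -1.27), and was still higher at 8 h than in maintained cultures, by 0.81. Ddit4 had 960.1 ± 306 at 8 h against 2915 ± 825 on withdrawal (-1.61). At 4 h Rragd (-0.67) and Ddit4 (-0.89) were already lower than on withdrawal and Rragc, another Rag GTPase, was higher (0.63). The 4 h calls held in 10, 15 and 22 of 27 alternative settings in that order, the call of Rragd against maintained cultures in 14, and the 8 h calls against withdrawal in 26 for Rragd and 27 for Ddit4. With the mean of a gene's probe sets in place of the brightest, these Rragd calls did not hold. The adjusted p of Rragd was then 0.4 at 4 h and 0.212 at 8 h against withdrawal, and 0.252 at 8 h against maintained cultures (limma).

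Of 11 transcription factors linked to ribosomal protein genes, 2 fell on withdrawal and none rose, beside the same 8.04% of all genes. Myc, a driver of ribosome production, had 15.4 ± 1.5 on withdrawal against 80.9 ± 19.3 in maintained cultures (log2 difference -1.61, adjusted p = 0.000302, limma). The withdrawal signal lay below the filter's level of 30.5, so the size of this change depends on the added constant. Myc had 48.8 ± 7.8 at 4 h and 49.97 ± 8.97 at 8 h and was called against withdrawal at both times (1.04 and 1.06). These calls held in 23 and 24 of 27 alternative settings, and that on withdrawal in all 27. Gabpa, an ETS factor whose motif is named above, had 230.5 ± 76.7 on withdrawal against 384.1 ± 45.9 in maintained cultures (-0.75, adjusted p = 0.0364, limma, and called in 19 of 27 alternative settings). Means with ± are given with the SD over 3 arrays.

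All 8 germ cell markers and 12 of 13 markers of undifferentiated spermatogonia had a mean signal above 100, as did 10 of 13 fibroblast markers, of which none was at 0 on any array. On withdrawal, where 8.04% of all genes were called, 6 of the 13 markers of undifferentiated spermatogonia tested fell, among them Bcl6b (-2.57) and Etv5 (-1.57). The 1 that rose was Zbtb16 (0.77), and 5 of the 13 had a positive difference, called or not. Against withdrawal 2 of the 13 rose at 2 h, 4 at 4 h and 5 at 8 h, and 0 fell. Of all genes, 0.115%, 2.64% and 2.39% were called at these times, in the same order. Of the 8 germ cell markers 2 rose on withdrawal, beside the same 8.04% of all genes, and 0 were called against withdrawal at any time. Of 12 fibroblast markers 0 were called on withdrawal, while 3 rose at 4 h (median of the list 0.81) and 4 at 8 h (median 0.64) against withdrawal. The part of these markers in the changes of Rragd, Ddit4, Myc and the other genes described above was not tested. Of 8 Sertoli cell markers 2 exceeded a mean signal of 100, of 6 Leydig and peritubular markers 2, and of 7 endothelial and blood markers 1. Mean signals of the members ran from 144 to 13939, and differences between genes in signal reflect their probes as well as their transcripts.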

How the data were processed

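Total RNA of 15 samples was hybridised to 1-colour Affymetrix arrays, 3 in each of 5 groups. The deposited values are signal intensity on a linear scale, which the authors computed with MAS5, per the submitters' processing notes. Its settings, version and scaling target are not stated in the labels. The trimmed mean of every array was 150, leaving out 2% at each end, so the arrays had been scaled alike. Platform annotation gave 1 symbol to 34945 of 45101 probe sets, several to 932 and none to 9160, and 64 controls were left out. Intensities were taken as log2(signal + 16), and the dimmest 40% of probe sets, under a signal of about 30.5, were dropped. That left 13083 genes, each read from its brightest probe set. Group means were fitted over all 15 arrays with limma 3.58.1 in R 4.3.3 (variance trend, not robust, 10 residual degrees of freedom), two-sided, with Benjamini-Hochberg adjustment. Precision is limited by how many arrays there are: the median SE of a member's log2 difference was 0.20. The script was tested on simulated data. Members, lists and tests were chosen with earlier results of these data known. The text names called members of every comparison and the highest and lowest member in each of the 5 comparisons of the design. It also names a fixed set of members (Rplp0, Rplp2, Rpl11, Rps6, Rpsa, Rps19, Rps14, Rps4x and Rpl39), called genes of each list and the like paralogs with a value. Rps25 was added after its values were seen. Alternatives, 26 planned and 1 added, covered scaling, constant, filter, probe set choice, model, replicate number as a block and each array left out. Sequences are from RefSeq (GRCm38.p6).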

Additional observations from a re-analysis of the deposited data

Results flagged for a closer look

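Rps4x had estimates of opposite sign against the same withdrawal arrays at 4 h and at 2 h of replacement. Its log2 difference from withdrawal was 0.59 at 4 h and -0.44 at 2 h, neither called (adjusted p = 0.163 and 0.654, limma). The difference between these effects, which equals 4 h against 2 h, was 1.03 (adjusted p = 0.0247, limma). All 3 arrays at 4 h lay above all 3 at 2 h, and 19.9% of all genes also had groups that did not overlap. Rps4x was 1 of 43 members called there, against 1.94% of all genes. The comparison was chosen after the values of this gene were seen. The call was lost when any 1 of the 2 h arrays, 4 h replicate 2 or 4 h replicate 3 was left out. No other member met the threshold in such a comparison of replacement times.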

How the results depend on the processing

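Over 27 alternative settings the count of members called equalled the reported one in 219 of 242 cases. The members' median moved by less than the SD between arrays in 216 of 216. That SD was 0.23, larger than each of the medians, so this measure cannot show that a median was stable. A median could change sign within it, as at 2 h and at 8 h against withdrawal without withdrawal replicate 3. Where counts moved, they did so as follows. Quantile normalization called 1 member in the F-test and 1 at 8 h against 2 h, both Rps4x, and gave Rps4x 0.13 at 8 h against maintained cultures, where the reported fit gave -0.07. Shifting arrays to 1 median turned Rpl39 at 8 h against 2 h to -0.0069. Without a filter 0 members were called at 4 h against 2 h. Fitting only the 2 groups compared called 1 at 8 h against 2 h. Array weights called 1 on withdrawal (Rps4x, -0.50, adjusted p = 0.0322, limma), 2 at 4 h against withdrawal (Rps4x, 0.94, and Rpl27, 0.49), 2 at 4 h against 2 h, 1 at 8 h against 2 h and 1 in the F-test. They also turned Rps27 to -0.22 at 2 h and -0.19 at 8 h, and Rpl27a to 0.39 at 4 h, against withdrawal. Leaving out maintained replicate 2 and withdrawal replicate 3 together, chosen after seeing the data, called 1 at 4 h against withdrawal (Rps4x, 0.90, adjusted p = 0.00867, limma), 1 at 8 h against 2 h and 1 in the F-test. It turned Rps27 to -0.26 at 2 h and -0.16 at 8 h, Rpl27a to 0.16 at 4 h, and Rps4x to 0.088 at 8 h against maintained cultures. The cause of these changes was not tested.

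With 1 array left out, the count of members called ran from 0 to 1 on withdrawal, at 4 h against withdrawal, at 4 h against 2 h and in the F-test, and was 0 elsewhere. Named values that changed sign ranged as follows. On withdrawal Rpl39 ran from -0.21 to 0.0055 and Rpl10a from -0.0092 to 0.38. Rps4x ran from -0.25 to 0.088 at 8 h against maintained cultures and from -0.032 to 0.45 at 8 h against withdrawal. Against withdrawal, Rps27 ran from -0.26 to 0.66 at 2 h and from -0.16 to 0.76 at 8 h, and Rpl27a from -0.62 to 0.33 at 4 h.

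Replicate numbers are shared between groups in the labels, and arrays were not paired by them in the main fit. The r of the deviations exceeded 0.1 in 7 of 30 same-numbered pairs and in 10 of 60 pairs of other numbers. Its mean was 0.019 in the first and -0.0092 in the second, and the highest r, 0.36, was of a same-numbered pair. With the replicate number as a block, 0 members were called in the 5 comparisons and 1, Rps4x, in the F-test (adjusted p = 0.0497, limma). Intervals were wider in some settings: on withdrawal 20 members, and at 8 h against maintained cultures 9, had a 95% interval within 1.5-fold after shifting arrays to 1 median.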
